A study of Mus musculus with 10 samples.

Results

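The Schlafen family is described here through the 7 protein-coding genes Slfn1, Slfn2, Slfn3, Slfn4, Slfn5, Slfn8 and Slfn9, chosen by their symbols in the GENCODE M21 annotation, out of 55385 mouse genes in the deposited table. They were measured by bulk RNA sequencing of Tomato+ neutrophils from squamous cell carcinomas (SCC) grafted on CatchupIVM-red mice, hosts in which the red Tomato protein is made by cells that use the neutrophil gene Ly6g. The grafts were either parental Sox2low cells (control) or Sox2Hi cells, with a high level of the stem cell transcription factor Sox2, and the tumours were left naive or treated with anti-PDL1 and a CD40 agonist, antibodies that release and prime immune responses. The library names carry C57 in all 4 groups, GFP in the control and Sox2 in the Sox2Hi groups, with no further explanation. The libraries fall into 4 groups: naive control (n = 3), treated control (n = 2), naive Sox2Hi (n = 3) and treated Sox2Hi (n = 2). The question behind the design is whether tumour cells with Sox2 blunt what interferons do to neutrophils, and interferon is a known inducer of several Schlafen genes. The labels give no age or sex of the hosts, no dose or time of treatment and no number of clones behind each graft, and they do not say that replicates came from separate mice, so p-values measure the spread between these libraries, which may be partly technical.

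Schlafen proteins share an N-terminal core and differ in length. Slfn1 and Slfn2 are the short forms, Slfn3 and Slfn4 the intermediate forms, and Slfn5, Slfn8 and Slfn9 the long forms, which carry a helicase-like domain at the C-terminus. The family is best known from blood cells: Slfn2 keeps T cells and monocytes quiescent, Slfn1 restrains T cell growth when overexpressed, and Slfn4 is a gene of myeloid cells that responds to interferon and to microbial products. Several long Schlafen proteins bind or cut transfer RNA and restrict viruses.

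All 7 genes lie in a cluster of 264 kb on chromosome 11, between positions 82951349 and 83215154 of GRCm38. From one end to the other they are Slfn5 (82951349 to 82964840, plus strand), Slfn9 (82978390 to 82991830, minus strand), Slfn8 (83002158 to 83020810, minus strand), Slfn2 (83065112 to 83070678, plus strand), Slfn1 (83116849 to 83122670, plus strand), Slfn4 (83175186 to 83190216, plus strand) and Slfn3 (83191330 to 83215154, plus strand). All 7 were matched by symbol to RefSeq promoter windows of GRCm38.p6, from 250 bases before to 50 bases after the start, with 8 windows in all because Slfn8 has 2. The windows were searched on both strands for GAAA followed after any 2 bases by a second GAAA, the core of the interferon-stimulated response element (ISRE), and for TTCNNNGAA, the gamma-activated site. The ISRE core occurred in the windows of the long forms Slfn5, Slfn8 and Slfn9 and in no window of Slfn1, Slfn2, Slfn3 or Slfn4. Among all 32851 windows it was found in 3.44%. Counted by gene, it was found for 3.99% of the 27025 genes with a window and for 52.9% of the 34 interferon-stimulated genes among them. The gamma-activated site was found in no window of the 7 genes and in 8.30% of all windows. A match describes letters and not a bound site. Printed here 5′ to 3′ on the strand of the gene are 1 window for each of the 3 genes that hold the ISRE core and, for contrast, that of Slfn4, which rose with treatment and holds none, with the match in capitals.
Slfn5 (chr11:82951852-82952151, plus strand): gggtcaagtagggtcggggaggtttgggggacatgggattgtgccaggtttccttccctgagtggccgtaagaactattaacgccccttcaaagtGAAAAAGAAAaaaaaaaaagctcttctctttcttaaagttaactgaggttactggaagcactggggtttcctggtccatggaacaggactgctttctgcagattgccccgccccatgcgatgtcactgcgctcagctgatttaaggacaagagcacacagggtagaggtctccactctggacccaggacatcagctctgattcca
Slfn8 (chr11:83020761-83021060, minus strand): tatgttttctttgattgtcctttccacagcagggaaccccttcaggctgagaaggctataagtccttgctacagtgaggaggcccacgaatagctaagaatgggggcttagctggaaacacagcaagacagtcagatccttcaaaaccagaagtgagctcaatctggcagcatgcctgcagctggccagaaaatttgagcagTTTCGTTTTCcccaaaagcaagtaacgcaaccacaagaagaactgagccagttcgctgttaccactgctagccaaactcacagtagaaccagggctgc
Slfn9 (chr11:82991781-82992080, minus strand): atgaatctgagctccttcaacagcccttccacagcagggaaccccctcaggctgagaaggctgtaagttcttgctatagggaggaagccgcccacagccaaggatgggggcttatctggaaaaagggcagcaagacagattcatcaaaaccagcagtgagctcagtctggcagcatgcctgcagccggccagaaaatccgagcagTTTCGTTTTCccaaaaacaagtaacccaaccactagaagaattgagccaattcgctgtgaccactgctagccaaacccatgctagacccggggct
Slfn4 (chr11:83174936-83175235, plus strand): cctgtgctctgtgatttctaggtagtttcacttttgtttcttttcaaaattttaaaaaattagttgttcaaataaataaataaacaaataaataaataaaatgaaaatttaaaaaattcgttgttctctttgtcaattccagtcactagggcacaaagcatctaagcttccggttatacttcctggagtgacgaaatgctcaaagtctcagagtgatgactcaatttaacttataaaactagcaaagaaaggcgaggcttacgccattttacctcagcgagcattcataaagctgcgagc

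The match of Slfn5 begins 155 bases before the RefSeq start and reads GAAAAAGAAA on the strand of the gene. That start lies downstream of the first base of Slfn5 in GENCODE given above, so the match falls within the GENCODE gene. Slfn8 and Slfn9 hold the same match, TTTCGTTTTC, which is the motif read on the opposite strand, 48 and 45 bases before the start. The stretches around that match are alike in the 2 genes. Similar sequence also runs through the transcripts: 27.3% of the 31-base words of Slfn8 and 24.6% of those of Slfn9 occur in another annotated gene, most of them within the family. For Slfn3 the share was 30.9%, of which Slfn4 held the most, and for Slfn4, Slfn5, Slfn2 and Slfn1 it was 20.9%, 13.4%, 10.8% and 1.96%. Reads from such stretches had to be divided between genes when the deposited counts were estimated, so the split between Slfn8 and Slfn9 and between Slfn3 and Slfn4 is less certain than the sum. Slfn5 shares 559 exon bases with the antisense gene Slfn5os, whose own estimate was between 0 and 4 reads. Whether the counting used strand is not given in the sources used here. Reads of the bases that Slfn5 and Slfn5os share can therefore not be told apart.

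Libraries held 13815734 to 22986193 counts. The 20 neutrophil marker genes were all detected, but Ly6g itself was low, at 1.99 CPM (read counts scaled to a common library size) in naive control and 2.57 in naive Sox2Hi against 17.4 in treated control and 7.10 in treated Sox2Hi libraries. The neutrophil markers together made up 0.712% to 1.04% of counts in naive control, 2.03% to 2.51% in treated control, 0.709% to 1.10% in naive Sox2Hi and 1.28% to 1.55% in treated Sox2Hi libraries. In RNA from many cells, fewer neutrophils and less RNA per neutrophil cannot be told apart. Markers of macrophages, monocytes and dendritic cells (16 of 16 detected) took 0.0971% to 0.198% of counts, with ranges that overlap between every pair of groups. Those of T and NK cells (16 of 16 detected) took 0.00607% to 0.0335%, and the naive control libraries (0.00789% to 0.0131%) lay below the treated Sox2Hi ones (0.0167% to 0.0278%). Erythroid and mast cell markers (10 of 10 detected) were at 0.0828% to 0.169% in naive control and 0.0360% to 0.0779% in naive Sox2Hi libraries, against 0.00522% to 0.0229% in treated control and 0.00726% to 0.00782% in treated Sox2Hi libraries. Keratinocyte markers (12 of 12 detected) were at 0.114% to 0.324% in naive control and 0.157% to 0.204% in naive Sox2Hi libraries, against 0.0522% to 0.108% in treated control and 0.0798% to 0.149% in treated Sox2Hi libraries. Reads of the Y-linked gene Ddx3y numbered 4 to 8 in 1 library of each group (replicate 1 in both naive groups and in treated control, replicate 2 in treated Sox2Hi) and 1007 to 6618 in the other 6. Fibroblast and endothelial markers were at 0.0348% to 0.0918% of counts in naive control and 0.0581% to 0.0853% in naive Sox2Hi libraries, against 0.00853% to 0.0102% in treated control and 0.0121% to 0.0363% in treated Sox2Hi libraries. Receptor genes of smell and pheromone sensing, taken as silent, gave an expected background of 5.02% to 8.39% of counts in naive control, 1.58% to 1.74% in treated control, 3.63% to 3.92% in naive Sox2Hi and 4.04% to 4.96% in treated Sox2Hi libraries. Because that background and the neutrophil share differed between groups, the members' differences are given under 2 scalings of the same edgeR model. The all-gene scaling takes its factors from the 29648 genes tested, and the expressed-gene scaling keeps the 11113 genes that averaged 5 CPM or more. Changing from the former to the latter moved the median gene by -0.56 on the log2 scale for treatment in control, 0.27 for treatment in Sox2Hi, -0.37 between naive grafts, 0.46 between treated grafts and 0.83 for the interaction.

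Slfn1, Slfn2 and Slfn4 dominated the family in every library, with 86.1% to 95.3% of the reads of the 7 genes between them. Per kb of merged exon, Slfn1 stood highest in naive control libraries at 133 ± 24.1 CPM per kb (SD, n = 3), followed by Slfn2 at 90.5 ± 6.70 and Slfn4 at 69.1 ± 4.27 CPM per kb. Far below came Slfn8 at 6.29 ± 0.835, Slfn9 at 5.60 ± 0.482 and Slfn3 at 5.48 ± 0.725 CPM per kb, 3 neighbours whose libraries overlap, and Slfn5 at 3.47 ± 0.377 CPM per kb. In treated control libraries the order was Slfn1 (935 ± 118 CPM per kb; SD, n = 2), Slfn2 (519.5 ± 128), Slfn4 (389.8 ± 72.2), Slfn8 (24.1 ± 4.54), Slfn5 (9.51 ± 2.23), Slfn9 (5.69 ± 0.480) and Slfn3 (3.84 ± 0.277). The libraries of Slfn2 and Slfn4 overlap there. In naive Sox2Hi libraries Slfn2 led at 157 ± 22.6 CPM per kb (SD, n = 3), ahead of Slfn1 at 125 ± 29.6 and Slfn4 at 70.0 ± 16.7. Slfn2 exceeded Slfn1 per kb in each of these 3 libraries, although the ranges over libraries overlap. The treated Sox2Hi libraries returned to the order Slfn1 (314 ± 21.9 CPM per kb; SD, n = 2), Slfn2 (196 ± 44.7) and Slfn4 (148 ± 6.81). The lower genes there were Slfn8 at 11.9 ± 1.25, Slfn5 at 6.65 ± 0.641, Slfn3 at 6.31 ± 0.596 and Slfn9 at 5.83 ± 0.627 CPM per kb, of which Slfn5, Slfn3 and Slfn9 overlap.

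**Figure D1:**
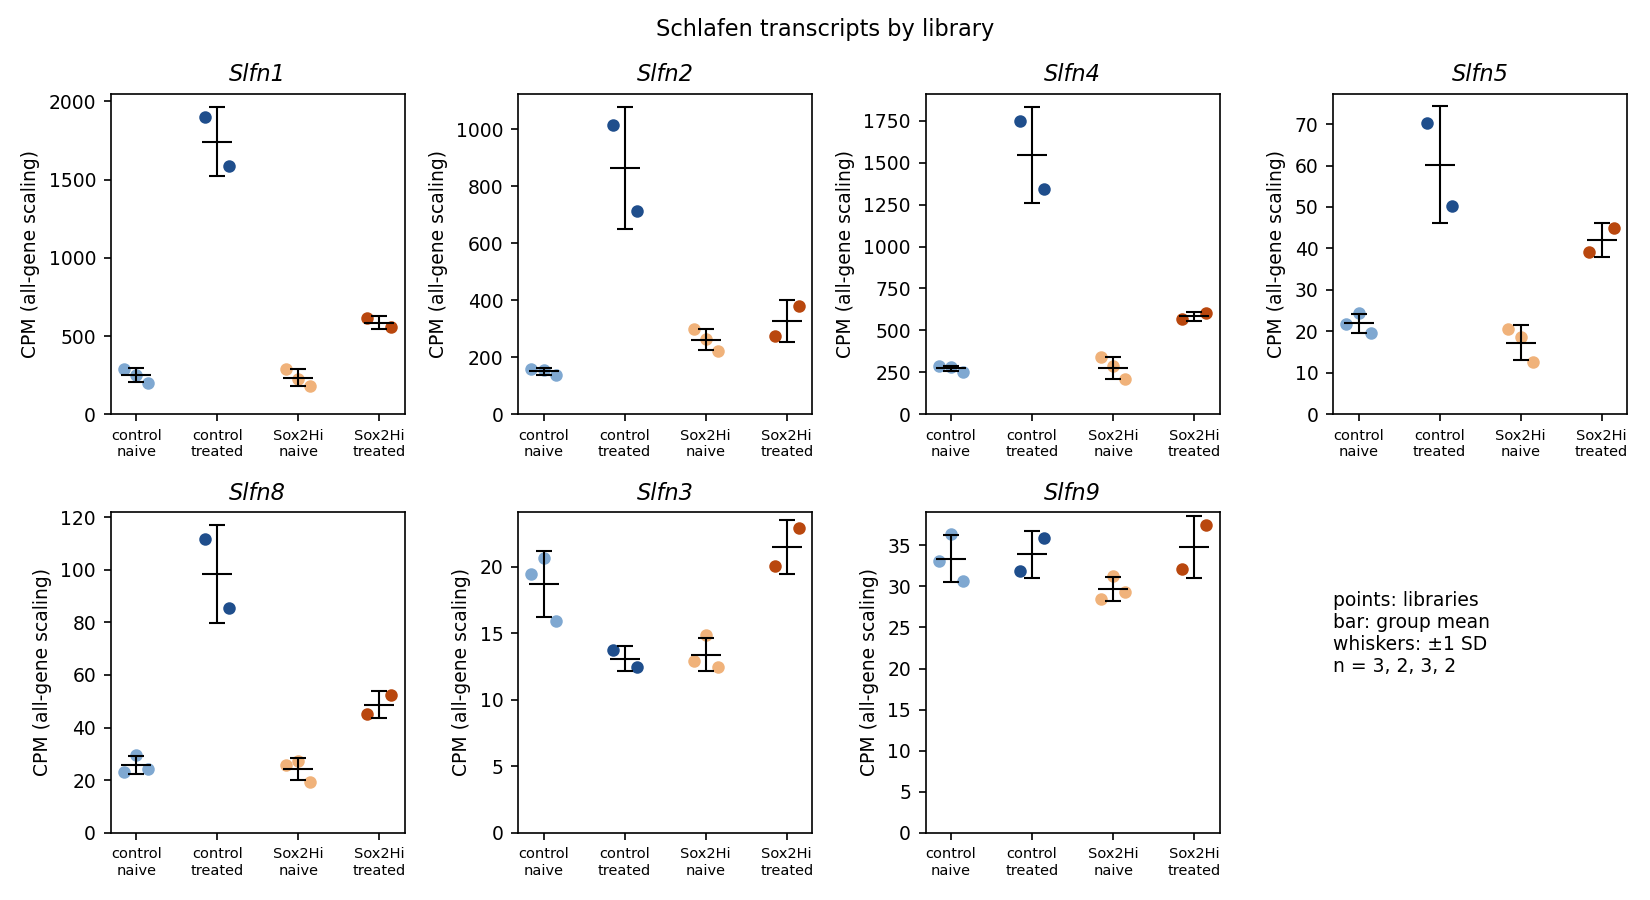
Level of each Schlafen gene in every library, in CPM under the all-gene scaling, with 1 panel per gene, 1 point per library and a linear axis from 0; the bars are group means and the whiskers 1 SD. Slfn1, Slfn2 and Slfn4 reach 713 to 1897 CPM in the 2 treated control libraries and at most 615 CPM elsewhere, while Slfn3 and Slfn9 stay between 12.4 and 37.4 CPM in all 10.

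Slfn1 was measured at 292, 251 and 202 CPM in the naive control libraries, 1897 and 1587 CPM in treated control, 292, 224 and 183 CPM in naive Sox2Hi, and 615 and 557 CPM in treated Sox2Hi. The treated libraries of each graft lie above all of its naive libraries, the 2 treated control libraries lie above all others, and the naive grafts overlap. Slfn4 followed the same order, with 286, 281 and 255 CPM in naive control, 1747 and 1343 CPM in treated control, 339, 285 and 207 CPM in naive Sox2Hi, and 566 and 604 CPM in treated Sox2Hi. Slfn2 did not: it was at 158, 156 and 138 CPM in naive control, 1016 and 713 CPM in treated control, 299, 263 and 223 CPM in naive Sox2Hi, and 274 and 379 CPM in treated Sox2Hi. All naive Sox2Hi libraries lie above the naive control ones for Slfn2, and the naive and treated Sox2Hi libraries overlap. Under the expressed-gene scaling the naive grafts overlap for Slfn2 and the treated Sox2Hi libraries lie above the naive ones.

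Among the long forms, Slfn8 was at 23.2, 29.6 and 24.4 CPM in naive control, 112 and 85.3 CPM in treated control, 25.9, 27.2 and 19.4 CPM in naive Sox2Hi, and 45.1 and 52.3 CPM in treated Sox2Hi. Slfn5 was at 21.8, 24.3 and 19.6 CPM in naive control, 70.2 and 50.2 CPM in treated control, 20.6, 18.6 and 12.5 CPM in naive Sox2Hi, and 39.2 and 44.9 CPM in treated Sox2Hi. For both genes the treated libraries lie above the naive ones in each graft. The naive grafts overlap under the all-gene scaling, while under the expressed-gene scaling the Sox2Hi libraries lie below the control ones. Slfn9 was nearly level under the all-gene scaling, at 33.1, 36.4 and 30.6 CPM in naive control, 31.9 and 35.9 CPM in treated control, 28.4, 31.2 and 29.3 CPM in naive Sox2Hi, and 32.2 and 37.4 CPM in treated Sox2Hi. Slfn3, an intermediate form studied mainly in gut epithelium and T cells, was at 19.5, 20.7 and 15.9 CPM in naive control, 13.8 and 12.4 CPM in treated control, 12.9, 14.8 and 12.4 CPM in naive Sox2Hi, and 20.1 and 22.9 CPM in treated Sox2Hi. Its treated libraries lie below the naive ones in control tumours and above them in Sox2Hi tumours. Expected background equalled at most 0.651% of the reads of Slfn1, Slfn2 or Slfn4, and 4.95% to 7.62% of those of Slfn3, 3.42% to 7.57% of Slfn9, 0.773% to 6.38% of Slfn8 and 1.90% to 13.5% of Slfn5.

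Treatment of control tumours raised the short forms Slfn1 and Slfn2, the intermediate form Slfn4 and the long forms Slfn5 and Slfn8. Under the all-gene scaling Slfn1 rose 7.01-fold (log2 2.81, SE 0.22, edgeR adjusted p = 9.17e-06), Slfn2 5.74-fold (log2 2.52, SE 0.21, adjusted p = 1.22e-05) and Slfn4 5.64-fold (log2 2.50, SE 0.21, adjusted p = 1.22e-05). Slfn8 rose 3.83-fold (log2 1.94, SE 0.21, edgeR adjusted p = 4.17e-05) and Slfn5 2.74-fold (log2 1.46, SE 0.23, adjusted p = 0.00061). Slfn3 had a log2 difference of -0.51 (SE 0.19, edgeR adjusted p = 0.054) and Slfn9 of 0.02 (SE 0.17, adjusted p = 0.92). In this contrast 5 of 7 members were called higher and 0 lower, where 18.7% of all genes tested were called higher and 15.3% lower, and the members' median was 1.94 against -0.30 over all genes. The same 5 genes rose under the expressed-gene scaling, by 2.23 (Slfn1), 1.95 (Slfn2), 1.93 (Slfn4), 1.36 (Slfn8) and 0.88 (Slfn5) on the log2 scale, with edgeR adjusted p-values from 0.00015 to 0.015. There Slfn3 fell by 1.09 (SE 0.22, edgeR adjusted p = 0.0018) and Slfn9 fell by 0.56 (SE 0.18, adjusted p = 0.019), whose sign differs between the scalings. That scaling called 24.2% of its genes higher and 32.7% lower, and the members' median was 1.36 against -0.17.

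Abundant genes as a class rose in this contrast, so the members were also set against genes of like level. Genes that averaged 100 CPM or more had a median of 1.10, and Slfn1, Slfn2 and Slfn4 stood 1.71, 1.42 and 1.40 above it on the log2 scale. Genes of 10 to 100 CPM had a median of 0.50, and relative to it Slfn8 stood at 1.44, Slfn5 at 0.96, Slfn9 at -0.47 and Slfn3 at -1.01. Of the alternatives run, library totals without scaling factors ended the call of Slfn5 (log2 0.39, edgeR adjusted p = 0.17), and gave calls to Slfn3 (-1.59, adjusted p = 0.00018) and Slfn9 (-1.05, adjusted p = 0.00055). Slfn3 was called lower in 7 of 22 alternatives, among them the replicate block by title number (-0.59, edgeR adjusted p = 0.026), limma-voom (-0.54, adjusted p = 0.046), background subtraction (-1.09, adjusted p = 0.0066) and the fit without naive control replicate 3 (-0.62, adjusted p = 0.027). Neutrophil markers rose too (18 of 19 called higher, median 2.30, by edgeR under the all-gene scaling), at 2.03% to 2.51% of counts in treated control against 0.712% to 1.04% in naive control libraries. Of the T and NK cell markers 9 of 16 were called higher (median 1.58), and of the macrophage, monocyte and dendritic cell markers 9 of 16 were higher and 1 lower (median 0.81), by edgeR under the same scaling. The T and NK cell share was 0.0106% of counts in treated control replicate 1 and 0.0335% in replicate 2. The former lies within the naive control range (0.00789% to 0.0131%). Under the expressed-gene scaling 16 of 18 neutrophil, 4 of 10 T and NK cell and 4 of 12 macrophage, monocyte and dendritic cell markers were higher, and 1 of the last was lower. Keratinocyte, fibroblast and endothelial, and erythroid and mast cell markers took lower shares in the treated libraries, without overlap. The part of these markers in the differences was not tested.

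In Sox2Hi tumours treatment raised Slfn1, Slfn4, Slfn5 and Slfn8, and Slfn2 was not called. Slfn1 rose 2.51-fold (log2 1.33, SE 0.22, edgeR adjusted p = 0.011), Slfn5 2.44-fold (log2 1.29, SE 0.23, adjusted p = 0.017), Slfn4 2.11-fold (log2 1.08, SE 0.21, adjusted p = 0.023) and Slfn8 2.01-fold (log2 1.01, SE 0.21, adjusted p = 0.026). Slfn3 had a log2 difference of 0.68 (SE 0.18, edgeR adjusted p = 0.061), Slfn2 of 0.32 (SE 0.21, adjusted p = 0.41) and Slfn9 of 0.23 (SE 0.17, adjusted p = 0.46). That makes 4 of 7 members called higher and 0 lower against 1.79% and 1.82% of all genes, with a median of 1.01 against 0.07. The expressed-gene scaling called 5, namely Slfn1 (1.59), Slfn5 (1.54), Slfn4 (1.34), Slfn8 (1.27) and Slfn3 (0.95), with edgeR adjusted p-values from 0.0034 to 0.012, and gave Slfn2 0.58 (adjusted p = 0.093) and Slfn9 0.50 (adjusted p = 0.058). It called 15.1% of its genes higher and 6.62% lower, and the members' median was 1.27 against 0.09. Relative to genes of like level, Slfn5 stood highest at 1.54 and Slfn2 lowest at 0.43 on the log2 scale. The calls under the all-gene scaling rest on few libraries: none held without naive Sox2Hi replicate 3, treated Sox2Hi replicate 1 or treated Sox2Hi replicate 2, with 0 members called in each of those fits, while 2 were called without naive Sox2Hi replicate 2 and 3 without replicate 1. The log2 differences of the 4 genes stayed between 0.88 and 1.53 over these fits. Neutrophil markers were at 1.28% to 1.55% of counts in treated Sox2Hi against 0.709% to 1.10% in naive Sox2Hi libraries, and the keratinocyte, fibroblast and endothelial, and erythroid and mast cell markers again took lower shares with treatment, without overlap. Their part in the differences was not tested.

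Between the naive grafts, no member was called under the all-gene scaling (edgeR). Slfn2 was nearest, 1.74-fold higher in Sox2Hi tumours (log2 0.80, SE 0.19, edgeR adjusted p = 0.054, higher in 3 of 3 libraries). Slfn3 had -0.48 (SE 0.16, edgeR adjusted p = 0.11), and Slfn1, Slfn4, Slfn5, Slfn8 and Slfn9 had log2 differences from -0.35 to 0.02. The count of 0 of 7 compares with 1.66% of all genes called higher and 0.209% lower, and the members' median was -0.09 against -0.08. At an unadjusted p under 0.05 Slfn2 and Slfn3 passed. The naive libraries with the same replicate number deviated together, and with the title number as a block Slfn2 was called (0.79, edgeR adjusted p = 0.035). With the description number as a block, which differs only for treated libraries, it was not (0.79, edgeR adjusted p = 0.063). When the title number was a block and only the 6 naive libraries were fitted, Slfn2 (0.71, adjusted p = 0.016) and Slfn3 (-0.56, adjusted p = 0.037) were called. Slfn2 also passed with DESeq2 (0.86, adjusted p = 0.00054), limma-voom (0.76, adjusted p = 0.0096), RLE factors, all genes with a count, and when either treated control library was left out. The expressed-gene scaling placed Slfn2 at 0.41 (SE 0.21, edgeR adjusted p = 0.26) and instead called Slfn3 (-0.87, SE 0.19, adjusted p = 0.016) and Slfn9 (-0.56, SE 0.15, adjusted p = 0.037) lower in Sox2Hi tumours. It called 2.05% of its genes higher and 11.3% lower, with a members' median of -0.48 against -0.05. Relative to genes of like level, Slfn2 stood at 0.45 and Slfn3 at -0.85. B cell and plasma cell markers took 0.0231% to 0.101% of counts in naive Sox2Hi against 0.0106% to 0.0166% in naive control libraries. The 0.101% belongs to naive Sox2Hi replicate 2, which stands apart with 732 reads of the B cell gene Ms4a1 against 54 and 47 in the other 2, and the next highest share was 0.0328%. Macrophage, monocyte and dendritic cell markers took 0.146% to 0.198% of counts in naive Sox2Hi and 0.0971% to 0.147% in naive control libraries, a narrow overlap. By edgeR under the all-gene scaling 0 of 16 were called (median 0.29). Among single marker genes, C1qa (mean 28.44 against 16.65 CPM) and Csf1r (20.08 against 12.98 CPM) were higher in naive Sox2Hi libraries, without overlap. Erythroid and mast cell markers were lower in the naive Sox2Hi libraries (0.0360% to 0.0779%) than in the naive control ones (0.0828% to 0.169%), without overlap. The part of these markers was not tested.

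Between the treated grafts, Slfn1, Slfn2, Slfn4 and Slfn8 were lower in Sox2Hi than in control tumours under the all-gene scaling, and Slfn3 was higher. The log2 differences were -1.57 for Slfn1 (SE 0.25, edgeR adjusted p = 0.0071), -1.41 for Slfn2 (SE 0.24, adjusted p = 0.0078), -1.40 for Slfn4 (SE 0.24, adjusted p = 0.0078), -1.02 for Slfn8 (SE 0.23, adjusted p = 0.017) and 0.72 for Slfn3 (SE 0.20, adjusted p = 0.040). Slfn5 had -0.52 (SE 0.25, edgeR adjusted p = 0.18) and Slfn9 had 0.04 (SE 0.18, adjusted p = 0.91). Against these 4 lower and 1 higher members of 7, 9.57% of all genes were called lower and 4.18% higher, and the medians were -1.02 and 0.13. With the expressed-gene scaling Slfn1 (-1.12, SE 0.28, edgeR adjusted p = 0.022), Slfn2 (-0.96, SE 0.26, adjusted p = 0.030), Slfn4 (-0.95, SE 0.27, adjusted p = 0.032) and Slfn3 (1.17, SE 0.23, adjusted p = 0.0099) kept their calls. Slfn8 had -0.56 there (SE 0.26, edgeR adjusted p = 0.15). That scaling called 5.34% of genes lower and 14.3% higher, with medians of -0.56 for the members and 0.04 for all genes. Relative to genes of like level, the differences were -0.74 for Slfn1, -0.57 for Slfn2, -0.57 for Slfn4, -0.55 for Slfn8 and 1.18 for Slfn3. These calls rest on 2 libraries a side and on a spread estimated over all 10 libraries. A fit of the 4 treated libraries alone, with its own filter and scaling factors, called 0 members. The number called also changed when a treated library was left out, which leaves its group without a replicate. Over the fits that left out a library the log2 differences were -1.71 to -1.45 for Slfn1, -1.67 to -1.14 for Slfn2, -1.59 to -1.21 for Slfn4 and -1.21 to -0.82 for Slfn8. Background subtraction kept the call of Slfn3 (1.18, edgeR adjusted p = 0.035) and ended those of Slfn1 (-1.11, adjusted p = 0.060), Slfn2 (-0.95, adjusted p = 0.074), Slfn4 (-0.95, adjusted p = 0.076) and Slfn8 (-0.59, adjusted p = 0.24). Expected background equalled at most 0.651% of the reads of Slfn1, Slfn2 or Slfn4. The fit on subtracted counts also took new scaling factors, and its values lie near those of the expressed-gene scaling. Slfn3 lost its call in 8 of the 10 fits that left out a library, with log2 differences from 0.61 to 0.78. Neutrophil markers were lower in treated Sox2Hi (1.28% to 1.55% of counts) than in treated control libraries (2.03% to 2.51%). Fibroblast and endothelial markers were higher in treated Sox2Hi (0.0121% to 0.0363% against 0.00853% to 0.0102%). By edgeR under the all-gene scaling 3 of 16 macrophage, monocyte and dendritic cell markers were lower. The expressed-gene scaling called 2 of 8 fibroblast and endothelial, 2 of 11 keratinocyte and 2 of 7 erythroid and mast cell markers higher. The part of these markers in the members' differences was not tested.

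The treatment response itself differed between the grafts, by the interaction term, for 5 members under the all-gene scaling. It was smaller in Sox2Hi tumours for Slfn2 (log2 -2.20, SE 0.30, edgeR adjusted p = 0.0046), Slfn1 (-1.48, SE 0.32, adjusted p = 0.0085), Slfn4 (-1.42, SE 0.30, adjusted p = 0.0081) and Slfn8 (-0.93, SE 0.29, adjusted p = 0.038). For Slfn3 it was higher (1.20, SE 0.26, edgeR adjusted p = 0.0093), from a difference below 0 in control tumours to one above 0 in Sox2Hi tumours. Slfn5 had -0.17 (SE 0.33, edgeR adjusted p = 0.71) and Slfn9 0.21 (SE 0.24, adjusted p = 0.51). Of all genes 16.2% were called lower and 11.3% higher, and the medians were -0.93 for the members and 0.22 for all genes. Under the expressed-gene scaling Slfn2 (-1.37, SE 0.34, edgeR adjusted p = 0.015) and Slfn3 (2.04, SE 0.30, adjusted p = 0.0010) remained called, and Slfn9 joined them (1.06, SE 0.24, adjusted p = 0.011). Slfn1 (-0.64, SE 0.36, edgeR adjusted p = 0.26), Slfn4 (-0.59, SE 0.34, adjusted p = 0.27) and Slfn8 (-0.09, SE 0.33, adjusted p = 0.89) were not called there, and Slfn5 took the opposite sign (0.66, SE 0.38, adjusted p = 0.27). This scaling called 2.47% of its genes lower and 16.0% higher, with medians of -0.09 and 0.03. Slfn2 and Slfn3 were called in each of the 21 alternatives run for the interaction, with values from -2.49 to -1.23 and from 0.98 to 2.19. Relative to genes of like level the interaction was -1.0 for Slfn2, -0.28 for Slfn1, -0.22 for Slfn4, -0.04 for Slfn8, 0.71 for Slfn5, 1.09 for Slfn9 and 2.08 for Slfn3. Slfn8 lost its call in 7 of the 10 fits that left out a library, with values from -1.14 to -0.75. The replicate block by description number also ended the call of Slfn8. The expected background was lowest in treated control (1.58% to 1.74% of counts) and next in naive Sox2Hi libraries (3.63% to 3.92%), the groups in which Slfn3 was also low. With that background subtracted, the interaction of Slfn3 was 2.07 (edgeR adjusted p = 0.0047). That fit also took a new filter and new scaling factors. Slfn1 moved to -0.62 in it, and the expressed-gene scaling alone gave Slfn3 2.04. The part of the background in the interaction of Slfn3 was not tested. Of the neutrophil markers 14 of 19 tested were called lower for the interaction under the all-gene scaling (median -1.57) and 0 of 18 under the expressed-gene scaling (median -0.75). Macrophage, monocyte and dendritic cell markers had 5 of 16 lower (median -0.98) and B and plasma cell markers 1 of 8 (median -3.32) under the all-gene scaling, and the part of these markers in the members' interaction was not tested.

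**Figure D2:**
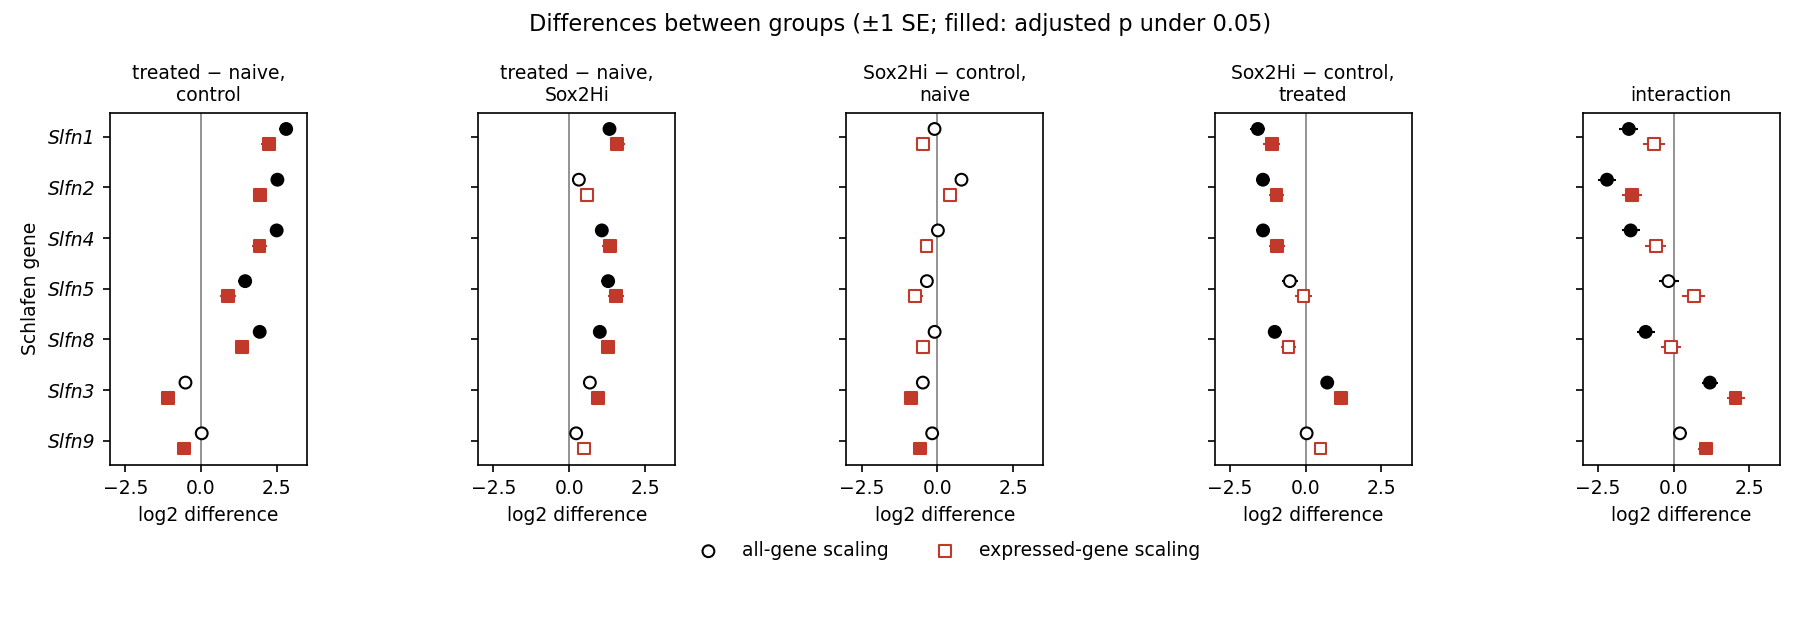
Log2 difference of each Schlafen gene (rows) in the 5 contrasts (panels) under both scalings, with bars of 1 SE and filled symbols for an adjusted p under 0.05 by edgeR. Slfn1, Slfn2 and Slfn4 lie between 1.93 and 2.81 for treatment of control tumours, and in the interaction panel only Slfn2 (-2.20 and -1.37) and Slfn3 (1.20 and 2.04) are filled under both scalings.

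The make-up of the family within a library does not depend on the scaling between libraries, and it showed where Slfn2 departs from Slfn1 and Slfn4. Slfn2 made up 29.3%, 30.4% and 32.5% of the reads of the 7 genes in the naive Sox2Hi libraries. In naive control it made up 19.0%, 19.5% and 20.1%, in treated control 20.8% and 18.6%, and in treated Sox2Hi 17.2% and 22.3%. The 3 naive Sox2Hi libraries lie above the other 7, none of which exceeds 22.3%. Slfn2 had 0.959 ± 0.104 reads per read of Slfn4 in naive Sox2Hi libraries (SD, n = 3), against 0.550 ± 0.00725 in naive control (SD, n = 3), 0.556 ± 0.0354 in treated control (SD, n = 2) and 0.556 ± 0.102 in treated Sox2Hi (SD, n = 2). Slfn4 itself held a steady share, between 30.2% and 37.2% in all 10 libraries, and Slfn1 between 25.9% and 41.5%. The share of Slfn3 was 2.41% ± 0.147 in naive control, 0.303% ± 0.0304 in treated control, 1.60% ± 0.288 in naive Sox2Hi and 1.31% ± 0.0636 in treated Sox2Hi libraries. That of Slfn9 was 4.33% ± 0.314, 0.796% ± 0.203, 3.56% ± 0.738 and 2.11% ± 0.130 in the same order. Both are lowest in treated control libraries, where the sum of the family was highest. The 7 genes together took 0.0985% ± 0.0150 of all counts in naive control, 0.266% ± 0.0584 in treated control, 0.0920% ± 0.0184 in naive Sox2Hi and 0.167% ± 0.0143 in treated Sox2Hi libraries. These shares are descriptions without a test.

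**Figure D3:**
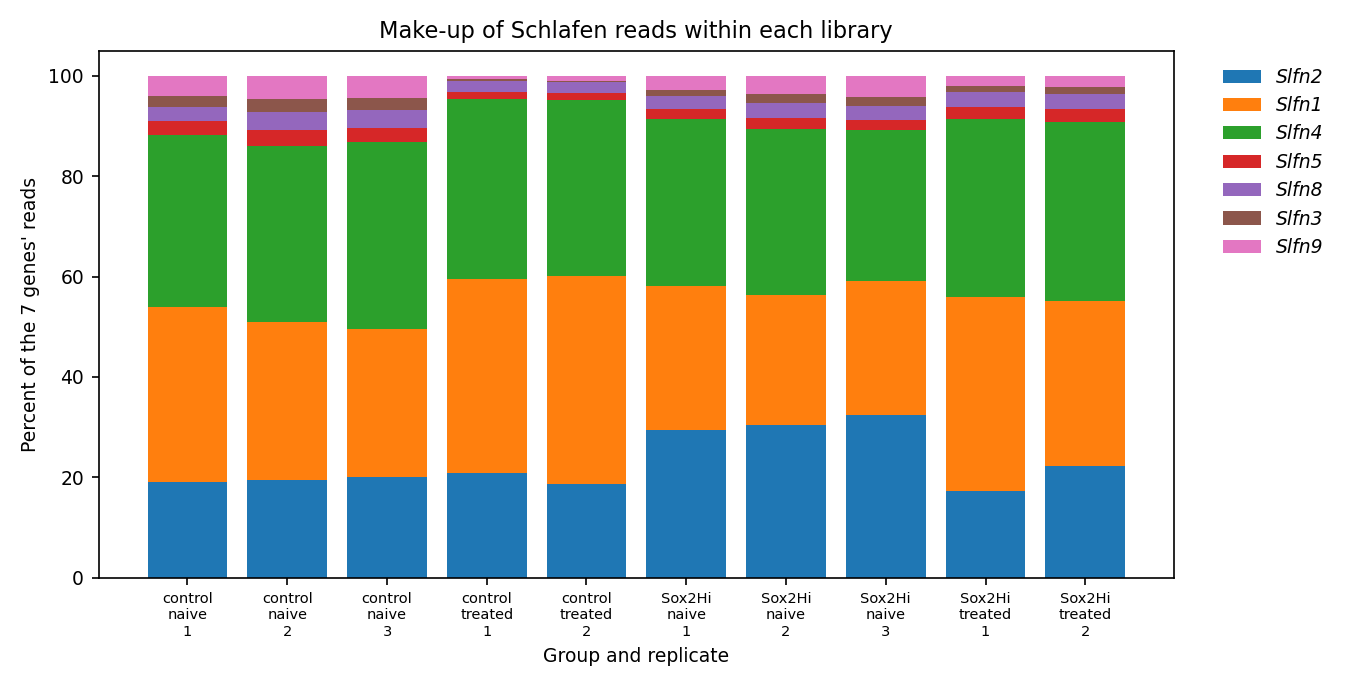
Stacked bars of the percent of the 7 genes' reads that each gene held in each of the 10 libraries, on a linear axis from 0 to 100. The Slfn2 part is 29.3% to 32.5% in the 3 naive Sox2Hi libraries and 17.2% to 22.3% in the other 7.

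Interferon-stimulated genes outside the family moved with treatment in both grafts. Of 45 such genes, all tested, 42 were called higher and 0 lower in treated control tumours (median log2 difference 2.12), and 31 higher and 0 lower in treated Sox2Hi tumours (median 1.20), by edgeR under the all-gene scaling, where 18.7% and 1.79% of all genes were called higher. Ifit2, an antiviral effector that binds RNA, had 3.27 (SE 0.25, edgeR adjusted p = 8.00e-06) in control and 2.17 (SE 0.24, adjusted p = 0.0012) in Sox2Hi tumours, and Phf11b had 3.34 (SE 0.34, adjusted p = 3.15e-05) and 1.87 (SE 0.33, adjusted p = 0.016). The lowest of the list in control tumours were Eif2ak2, which encodes the kinase PKR (0.40, edgeR adjusted p = 0.070), and Ifi44 (1.12, adjusted p = 0.0030). In the expressed-gene scaling the values for control tumours were 2.69 for Ifit2, 2.76 for Phf11b, 0.56 for Ifi44 and, with the sign turned, -0.17 for Eif2ak2 (edgeR adjusted p = 0.42). In control tumours Slfn1 (2.81), Slfn2 (2.52) and Slfn4 (2.50) lie above the list's median and Slfn8 (1.94) and Slfn5 (1.46) below it. In Sox2Hi tumours Slfn1 (1.33) and Slfn5 (1.29) lie above it and Slfn4 (1.08), Slfn8 (1.01) and Slfn2 (0.32) below it. Between the grafts 0 of 45 were called in naive and 27 lower in treated tumours (medians -0.12 and -0.97), and 25 were lower for the interaction (median -1.05). Of all genes 1.66% were higher and 0.209% lower between the naive grafts, 9.57% were lower between the treated grafts and 16.2% for the interaction. The expressed-gene scaling tested 43 of them and called 40 and 39 higher with treatment in control and Sox2Hi tumours, 7 and 7 lower between the naive and the treated grafts, and 0 for the interaction (medians 1.61, 1.47, -0.50, -0.58 and -0.23). Of all its genes 24.2% and 15.1% were higher with treatment, and 11.3%, 5.34% and 2.47% were lower in the other 3 contrasts. The count of 0 there and the call of Slfn2 for the interaction under the same scaling stand side by side; the difference between Slfn2 and the list was not tested.

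Of 13 receptors and signalling genes of the interferon pathway, 12 were called higher with treatment in control tumours and 2 in Sox2Hi tumours, and 0 were lower, by edgeR under the all-gene scaling, beside 18.7% and 1.79% of all genes called higher. The transcription factor Irf1 had 2.10 (SE 0.24, adjusted p = 6.17e-05) and 1.24 (SE 0.24, adjusted p = 0.022). The lowest in control tumours were Socs3, a feedback inhibitor of cytokine receptors (1.17, SE 0.20), and Ifngr2, a chain of the interferon gamma receptor (1.26, SE 0.17). With the expressed-gene scaling the values in control tumours were 1.54 for Irf1, 0.62 for Socs3 and 0.69 for Ifngr2. Between the grafts 2 were higher in naive Sox2Hi tumours, 6 were lower in treated ones and 8 were lower for the interaction, beside 1.66%, 9.57% and 16.2% of all genes in those directions. The expressed-gene scaling called 12 and 6 higher with treatment, beside 24.2% and 15.1% of its genes, and 0 in either direction in the other 3 contrasts. Of 8 interferon ligand genes, 2 passed the filter on low counts and 1 was called higher with treatment in each graft under the all-gene scaling, and 0 were tested under the expressed-gene scaling.

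The reads of the family were also expressed per 1000 reads of the 20 neutrophil markers, a ratio chosen after the values had been seen and given without a test. For the 7 genes together it was 103, 107 and 115 in naive control, 122 and 111 in treated control, 99.9, 109 and 104 in naive Sox2Hi, and 115 and 123 in treated Sox2Hi libraries. The naive and treated control libraries overlap, and the treated Sox2Hi libraries lie above the naive Sox2Hi ones. S100a8 and S100a9 made up 25.6% to 52.7% of those marker reads, and without them the ratio was 160.0 ± 8.07 in naive control (SD, n = 3), 242 ± 24.5 in treated control (SD, n = 2), 144.5 ± 2.44 in naive Sox2Hi (SD, n = 3) and 203.5 ± 6.44 in treated Sox2Hi libraries (SD, n = 2). With the 18 markers left, the treated libraries lie above the naive ones in each graft, whereas with all 20 those of control tumours overlap. For Slfn2 the ratio to all 20 markers was 19.5 to 23.2 in naive control and 29.3 to 33.7 in naive Sox2Hi libraries, which do not overlap, and 20.7 to 25.4 and 19.7 to 27.5 in treated control and treated Sox2Hi libraries. For Slfn1 it was 33.6 to 36.1 in naive control and 46.0 to 47.5 in treated control libraries. For Slfn4 it was 35.3 to 42.8 and 38.9 to 43.8, which overlap (53.1 to 62.9 and 78.7 to 92.6 with 18 markers). For Slfn9 it was 4.09 to 5.15 in naive control and 0.799 to 1.04 in treated control libraries. Slfn5, called higher with treatment of control tumours, had 2.70 to 3.29 reads per 1000 in naive control and 1.45 to 1.76 in treated control libraries (4.05 to 4.84 and 2.94 to 3.72 with 18 markers), and Slfn8 had 2.86 to 4.10 and 2.47 to 2.80, so on this ratio the treated libraries of both lie below the naive ones in control tumours. Slfn8 overlaps with 18 markers. In Sox2Hi tumours Slfn5 had 1.89 to 2.35 in naive and 2.82 to 3.26 in treated libraries. Slfn3 had 2.41 to 2.76 reads per 1000 in naive control and 0.345 to 0.360 in treated control libraries. In Sox2Hi tumours it had 1.27, 1.88 and 1.88 in naive and 1.45 and 1.67 in treated libraries, which overlap.

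**Figure D4:**
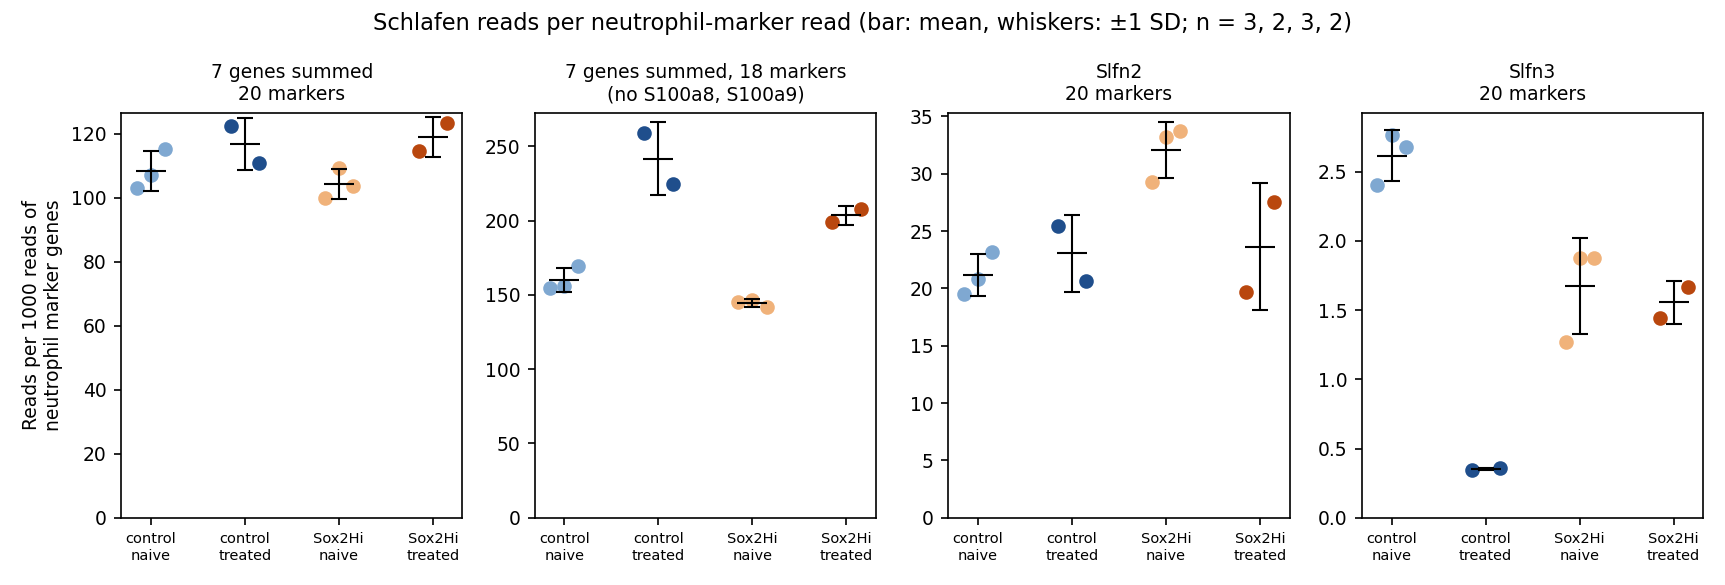
Reads of the 7 Schlafen genes together per 1000 neutrophil-marker reads by group, with all 20 markers (first panel) and with the 18 left without S100a8 and S100a9 (second panel), and of Slfn2 and Slfn3 with all 20 (other panels); points are libraries, the bar is the mean and the whiskers are 1 SD (n = 3, 2, 3 and 2). With 20 markers the sums lie between 99.9 and 123, and with 18 the treated control libraries reach 224 and 259.

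The genes whose log2(CPM + 1) was most like that of each member over the 10 libraries were sought among 7095 genes averaging 10 CPM or more, as a description, since all points share the scaling and the 4 groups. Slfn1 was nearest to the calprotectin genes S100a8 (Pearson r = 0.999) and S100a9 (0.997), and Slfn4 to Rhoh (0.997), a small GTPase of blood cells, and S100a8 (0.995). For Slfn2 they were Atp6v0d1 (0.995) and Atp6v1b2 (0.993), which encode subunits of the proton pump of lysosomes. Slfn5 was nearest to the interferon-stimulated genes Oas3 (0.985) and Ifi27l2a (0.983), and Slfn8 to Ddx60 (0.993), a further interferon-stimulated gene, and Inpp1 (0.993). For Slfn3 they were Pign (0.983) and the odorant receptor gene Olfr635 (0.983), and for Slfn9 Sirt5 (0.883) and Sag (0.863). Under the expressed-gene scaling Ifi27l2a took rank 19 for Slfn5 (0.949), and Sirt5 and Sag took ranks 17 and 12 for Slfn9, while the other genes named here for a member or for the sum took ranks 1 to 9. The sum of the family was nearest to genes that included Rhoh, Pglyrp1, Lsp1 and Alox5ap (0.995 to 0.997), genes of granulocytes and other leukocytes. Within the family, Slfn1 and Slfn4 had r = 0.994, Slfn4 and Slfn8 0.989, Slfn5 and Slfn8 0.965, and Slfn2 and Slfn4 0.926. Slfn3 and Slfn9 had 0.602, and 0.956 under the expressed-gene scaling.

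Other genes of the cluster and its surroundings were compared as well. The pseudogene Slfn10-ps, at 86 to 210 reads, rose with treatment in control tumours (1.40, SE 0.23, edgeR adjusted p = 0.00071), with 0.83 (adjusted p = 0.0080) when the expressed-gene scaling was used. Under the all-gene scaling it was also lower between the treated grafts (-0.87, SE 0.25, edgeR adjusted p = 0.042) and for the interaction (-1.02, SE 0.33, adjusted p = 0.038), where the expressed-gene scaling gave -0.40 (adjusted p = 0.26) and -0.18 (adjusted p = 0.74). It shares 14.3% of the words of Slfn9, and its expected background equalled 4.80% to 33.8% of its reads. Slfn14 (8 to 23 reads) and Slfnl1 (3 to 19 reads, on chromosome 4) were at or near the expected background in at least some libraries and were called in no contrast. Of the 35 other annotated genes within 200 kb of the outermost members, 21 were tested, Slfn10-ps among them. With treatment 10 of the 21 were called higher and 2 lower in control tumours and 0 in Sox2Hi tumours, 0 differed between the naive grafts, 5 were lower and 1 higher between the treated grafts, and 9 were lower and 2 higher for the interaction (edgeR, all-gene scaling). Over all genes 18.7% were higher and 15.3% lower with treatment in control tumours, 9.57% lower and 4.18% higher between the treated grafts, and 16.2% lower and 11.3% higher for the interaction. With treatment in Sox2Hi tumours 1.79% were higher and 1.82% lower, and between the naive grafts 1.66% were higher and 0.209% lower. Rffl, which encodes a ubiquitin ligase, had 1.54 (SE 0.20, edgeR adjusted p = 0.00016), Nle1, a gene of ribosome assembly, had 1.10 (SE 0.20, adjusted p = 0.0015), and AI662270 beside Slfn3 had 1.93 (SE 0.34, adjusted p = 0.0013) with treatment in control tumours. Under the expressed-gene scaling 8 were tested, of which 4 were higher with treatment in control tumours, namely Rffl (0.98), Nle1 (0.53), Slfn10-ps (0.83) and AI662270 (1.32), and 1, Nle1, was lower between the treated grafts (-0.86), beside 24.2% and 5.34% of its genes. These genes were named because they were called, after their values were known.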

How the data were processed

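Tomato+ neutrophils of 10 libraries were profiled by bulk RNA sequencing. A Zymo Quick-RNA Microprep kit and a NEBNext low-input library kit were used, per the labels' protocols. The authors deposited estimated counts per gene as whole numbers, 1 column per library, and all columns matched a library. Kallisto 0.44.0 and the build mm10 are named in the submitters' processing notes, while the annotation, the strand setting and any filter are not given in the sources used here. Symbols and positions came from GENCODE M21 (GRCm38), which named 55144 of the 55385 mouse genes. The 96 sequences that are not mouse genes, 0.000992% to 0.00277% of counts, were left out of library sizes and tests.

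All 10 libraries entered a single edgeR 4.0.16 model (R 4.3.3) with the 4 groups as terms, filterByExpr, TMM scaling and quasi-likelihood F-tests, on counts rounded to whole numbers. P-values were adjusted by Benjamini-Hochberg over all genes tested, with calls under 0.05, and SE is the log2 difference divided by the square root of F. The 5 contrasts were treated minus naive in each graft, Sox2Hi minus control in naive and in treated tumours, and the interaction, which shares libraries with the other 4. Means ± SD are over libraries, CPM are scaled by TMM factors, and levels per kb use merged exon length. The common biological coefficient of variation was 0.232. Expected background was the median count per kb over 1466 receptor genes times exon length. On simulated data for the control treatment contrast, 200 genes were changed and 28321 were tested. The model called 52% of 2-fold and 100% of 4-fold changes and 0.0178% of unchanged genes. Replicates differed by more than counting noise (chi-square per degree of freedom at least 12.5), so none was treated as a file deposited again; this does not show that they are separate samples. Naive libraries with the same number correlated in their deviations from group means (r = 0.273, 0.345 and 0.484), so the numbers pair them; this rests on the data, since nothing in the labels explains the numbers. The numbers in titles and descriptions differ for 3 of the 4 treated libraries, and both were tried as blocks. The other alternatives were DESeq2 1.42.0, limma-voom (limma 3.58.1), RLE factors, library totals, all genes with a count, background subtraction, a Ddx3y covariate, the compared groups alone and each library left out. The genes named are the 7 members and 4 relatives whatever their result, the 2 highest and 2 lowest of each interferon list in control treatment, the nearest genes by correlation, and called genes of the locus, of which a few are not reported here. The members and lists were chosen with earlier results of these data known, so they are not independent support. Identity between the proteins was not analysed here.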

Additional observations from a re-analysis of the deposited data

Results flagged for a closer look

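The response to treatment differed between the grafts for 5 members by the edgeR interaction term under the all-gene scaling, which is why each is listed here. The interaction was -2.20 for Slfn2, -1.48 for Slfn1, -1.42 for Slfn4 and -0.93 for Slfn8 on the log2 scale, and 1.20 for Slfn3. Only Slfn2 and Slfn3 passed the threshold under both scalings and in all 21 alternatives run. Slfn1 and Slfn4 passed in 17 of 21, and Slfn8 in 9 of 21. For Slfn2, the Sox2Hi naive libraries (223 to 299 CPM) lay above the control naive libraries (138 to 158 CPM) under the all-gene scaling. For Slfn3, the libraries moved down with treatment in control tumours and up in Sox2Hi tumours without overlap.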

How the results depend on the processing

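Over 770 alternative fits of single members, 628 kept direction and side of the threshold, 65 lost the call, 36 gained it and 41 changed sign. Among the values that changed sign, the interaction of Slfn8 is the 1 that was called in the analysis as reported. Treatment of control tumours called 5 members, and 5 to 6 when a library was left out. Treatment of Sox2Hi tumours called 4, and 0 to 5 when a library was left out. Between naive grafts 0 members were called; with the replicate block 1 was (by title number) or 2 (naive libraries alone), with the expressed-gene scaling, expressed-gene factors and limma-voom 2 each, with RLE factors, all genes with a count, background subtraction and DESeq2 1 each, and 0 to 1 when a library was left out. Between treated grafts 5 were called, 0 in the compared groups alone, 1 with background subtraction, and 0 to 5 when a library was left out. The interaction called 5, but 3 with the expressed-gene scaling, expressed-gene factors, library totals or background subtraction, and 4 to 5 when a library was left out; the cause was not tested.

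Changes of sign were as follows. Slfn9 with treatment in control tumours was -0.56 under the expressed-gene scaling and its factors, -1.05 with library totals, -0.53 with background subtraction, -0.010 and -0.0093 with the replicate block by title and by description number, and -0.041 to 0.13 when a library was left out. Between treated grafts it was -0.11 with RLE factors and DESeq2, -0.078 with all genes with a count, and -0.087 to 0.11 when a library was left out. For the interaction it was -0.0033 with RLE factors, -0.0095 with all genes and -0.00391 with DESeq2. Slfn4 between naive grafts was -0.36 under the expressed-gene scaling and its factors, -0.23 with library totals, -0.064 in the compared groups alone, -0.38 with background subtraction, -0.021 with limma-voom, -0.00843 with the replicate block and -0.089 with the block in naive libraries alone, and -0.15 to 0.19 when a library was left out. Slfn1 there was 0.011 with all genes and -0.29 to 0.054 when a library was left out, and Slfn8 was 0.018 with all genes and 0.023 with limma-voom and -0.18 to 0.046 when a library was left out. Slfn5 for the interaction was 0.66 under the expressed-gene scaling and its factors, 0.81 with library totals, 0.63 with background subtraction and -0.43 to 0.060 when a library was left out, and 0.22 between treated grafts with library totals. Slfn8 for the interaction was 0.063 with library totals. The Ddx3y covariate ended the call of Slfn3 between treated grafts (0.71, edgeR adjusted p = 0.057). The replicate block by description number ended that of Slfn8 for the interaction (-0.77, edgeR adjusted p = 0.060) and called Slfn3 with treatment in Sox2Hi tumours (0.75, adjusted p = 0.049), the block by title number called Slfn3 with treatment in control tumours (-0.59, adjusted p = 0.026), and beside Slfn2 and Slfn3 between naive grafts the blocks changed no other call. For treatment of control tumours the model called 52% of 2-fold changes in a simulation that changed 200 genes. In the data 18.7% of genes were called higher and 15.3% lower in that contrast, so the share need not hold there. A missing call does not show that a gene was unchanged.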
